A study of Mus musculus with 6 samples.

Results

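Macrophage migration inhibitory factor (Mif), its homologue D-dopachrome tautomerase (Ddt) and the receptors Cd44, Cxcr2 and Cxcr4 were examined in the hearts of mice of the C57BL/6J strain, taken at postnatal day 14. Treatment had lasted 1 week, with ETX in 3 hearts (replicates 6, 7 and 10) and with the vehicle, phosphate-buffered saline (PBS), in 3 hearts (replicates 3, 9 and 12). The labels do not spell out ETX, and give neither dose nor sex. The hearts are called biological replicates, and each was hybridised to 1 Affymetrix whole-transcript array, so that the number of arrays limits the precision. The 5 genes were taken by symbol from the 19938 genes that had a transcript cluster (a probe group of the array) naming 1 gene. Where a gene had several clusters, the one with the highest mean over all 6 arrays was used. Mif was selected on its measured level, higher in ETX than in PBS in these same arrays, and its cluster on the mean over all arrays, so it is described with no test. The other 4 were taken for their known relation to it. All 5 had a mean above 3.45 on the log2 scale, the lower quartile of gene means, below which genes were left out of the tests.

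MIF is a small secreted cytokine with a tautomerase fold, held ready-made in many cell types, cardiomyocytes included, and released under stress. It binds the surface protein CD74, which signals together with CD44, and it also engages the chemokine receptors CXCR2 and CXCR4. In the mouse heart MIF is known to act through AMP-activated protein kinase during ischaemia. DDT, also called MIF-2, shares the fold and binds CD74 as well.

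In RefSeq's GRCm38.p6 annotation, Mif and Ddt both lie on chromosome 10. Mif spans chr10:75859353-75860277 and Ddt chr10:75771233-75773374, with their lower coordinates 88120 bases apart. Cd44 lies at chr2:102811141-102901669, Cxcr2 at chr1:74153994-74161246 and Cxcr4 at chr1:128588199-128592299. The coordinates describe the genes and not the array's clusters, for which no build is named. The 250 bases before the annotated start of Mif and Ddt, both on the minus strand, are shown because these are the 2 ligands of the set, homologues in 1 stretch of the chromosome. They are printed in gene direction, and capitals mark matches on either strand to 3 motifs: ACGTG (the core that hypoxia-inducible factors recognise), TGACGTCA (the cAMP response element bound by CREB) and GGGCGG (the GC box bound by SP1).
Mif, chr10:75860278-75860527: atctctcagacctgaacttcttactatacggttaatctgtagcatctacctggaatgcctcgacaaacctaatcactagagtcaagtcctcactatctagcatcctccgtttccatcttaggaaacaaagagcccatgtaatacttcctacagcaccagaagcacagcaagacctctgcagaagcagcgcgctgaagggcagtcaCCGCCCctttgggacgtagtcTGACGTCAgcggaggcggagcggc
Ddt, chr10:75773375-75773624: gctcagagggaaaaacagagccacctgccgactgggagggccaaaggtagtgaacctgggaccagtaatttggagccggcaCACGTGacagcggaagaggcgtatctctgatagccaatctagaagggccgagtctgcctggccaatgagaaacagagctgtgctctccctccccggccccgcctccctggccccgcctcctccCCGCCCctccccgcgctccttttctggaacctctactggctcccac

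In the 300-base windows that end 50 bases after the start, Mif held 1 TGACGTCA, beginning 24 bases before the start, and 2 GGGCGG, beginning 45 bases before and at base 11 after it. It also held 1 ACGTG on the opposite strand, at base 30 after the start, outside the letters printed. Ddt had no TGACGTCA there, 1 GGGCGG at 46 bases before the start, and ACGTG on both strands, overlapping in the palindrome CACGTG. Cd44 held 1 ACGTG and 1 GGGCGG, Cxcr4 3 GGGCGG, and Cxcr2 none of the 3 motifs. Of all 32851 RefSeq windows of this length, 1.79% held TGACGTCA, 19.6% ACGTG and 35.7% GGGCGG. These matches describe the letters and not binding.

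Mif, the cytokine itself, was higher in each ETX heart than in any PBS heart. Its log2 signal was 9.41, 9.47 and 9.51 in ETX replicates 6, 7 and 10, against 8.62, 8.31 and 8.14 in PBS replicates 3, 9 and 12. The ETX hearts lay close together, while the PBS hearts were more spread, with replicate 12 the lowest. The means were 9.46 ± 0.05 in ETX and 8.36 ± 0.24 in PBS (SD, n = 3 each), a log2 difference of 1.11 or 2.15-fold. This difference led to the choice of Mif, and nothing is supported with it.

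The array held 3 clusters annotated to Mif alone, and all 3 showed the same picture. Cluster 10590972, used above, was the brightest. Cluster 10561806 read 9.08, 9.22 and 9.16 in ETX replicates 6, 7 and 10, against 8.23, 7.99 and 7.81 in PBS replicates 3, 9 and 12, a log2 difference of 1.14. Cluster 10370021 read 8.98, 9.08 and 9.06 in the ETX hearts and 8.17, 7.88 and 7.73 in the PBS hearts, in the same order, a difference of 1.11. In all 3 clusters PBS replicate 3 was the highest and PBS replicate 12 the lowest of the PBS hearts. The annotation gives the 3 clusters the same transcripts, and RefSeq lists 7 Mif pseudogenes on other chromosomes. Probes that match both gene and copies cannot be told apart here, so the clusters are not 3 independent measurements. By number only cluster 10370021, the dimmest, falls between the clusters of the neighbouring genes Gstt2 (10370013) and Smarcb1 (10370025). Clusters 10590972, used above, and 10561806 do not, and whether they lie on the gene or on a copy is not known. The only values numbered at the gene are thus those of cluster 10370021, with a log2 difference of 1.11.

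**Figure D1:**
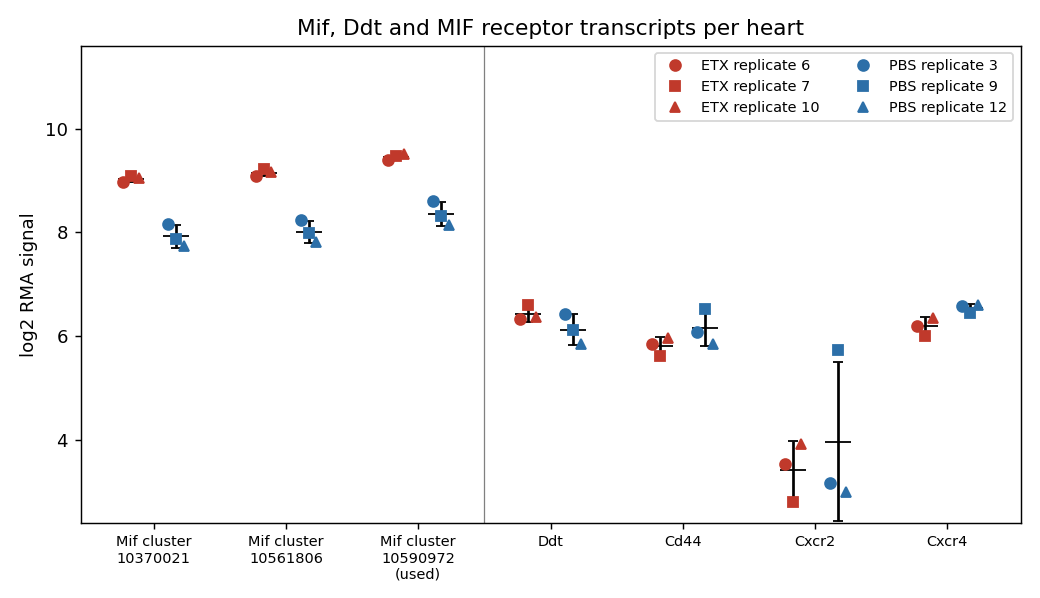
Log2 RMA signal (y axis) of the 3 Mif clusters, Ddt and the receptors in each heart; symbols are hearts, and bars are mean ± SD of 3 hearts per group. The ETX hearts lie above all PBS hearts in each Mif cluster and below them for Cxcr4, and overlap them for Ddt, Cd44 and Cxcr2.

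The size of the difference depended little on single hearts, and its direction could not turn because the groups do not overlap. With 1 heart left out in turn, the log2 difference ran from 1.00 (without PBS replicate 12) to 1.24 (without PBS replicate 3). Lung transcripts were abundant in 2 PBS hearts: the mean of 11 lung markers was 5.67 in PBS replicate 3 and 7.03 in PBS replicate 9, against 3.41 in PBS replicate 12 and 3.51 to 3.58 in the ETX hearts. Against PBS replicate 12 alone the difference of Mif was 1.32. The mean of red cell markers also separated the groups. For the 4 measured of 7 erythroid markers it was 5.91 to 6.04 in ETX and 5.50 to 5.67 in PBS. Alas2, the haem synthesis enzyme of red cell precursors, and the anion exchanger Slc4a1 were higher in ETX (limma adjusted p = 0.0348 and 0.0385). The other measured markers, Epb42 and Klf1, overlapped between the groups and did not pass (limma adjusted p = 0.296 and 0.241). Over all tested genes 1.14% were called higher, and 27.7% had no overlap. The part of red cells in the level of Mif was not tested. In whole hearts, fewer cells of a type and less RNA per cell cannot be told apart. Atrial markers set PBS replicate 3 apart again, together with ETX replicates 6 and 7. The mean of 6 atrial markers was 7.52, 7.65 and 6.13 in ETX replicates 6, 7 and 10, against 8.26, 5.58 and 5.69 in PBS replicates 3, 9 and 12. With this mean in the fit the difference of Mif was 1.05. The labelled tissue was borne out by its markers, since the 11 cardiomyocyte genes averaged at least 11.89 in each heart.

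Ddt, the second ligand, did not pass the test. Its log2 signal was 6.33, 6.60 and 6.36 in ETX replicates 6, 7 and 10, against 6.43, 6.11 and 5.84 in PBS replicates 3, 9 and 12. PBS replicate 3 lay inside the ETX range and the other PBS hearts below it. The difference was 0.30, with an unadjusted 95% interval of -0.03 to 0.64 (limma adjusted p = 0.272). The interval holds no difference as well as a rise of 0.64. The difference was 0.16 without PBS replicate 12, 0.45 without PBS replicate 3 and 0.59 without PBS replicates 3 and 9, and it passed in none of these fits.

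None of the 3 receptors passed either. Over all 14953 genes tested, 3.56% passed a limma adjusted p of 0.05, and of the 4 members other than Mif 0 did; 1 of them, Cxcr4, lay under an unadjusted 0.05, as did 21.9% of all tested genes. Cxcr4, the receptor shared with the chemokine CXCL12, came nearest. It read 6.20, 6.00 and 6.36 in ETX replicates 6, 7 and 10, against 6.58, 6.45 and 6.59 in PBS replicates 3, 9 and 12. Each ETX heart was thus below each PBS heart, with replicates 10 (ETX) and 9 (PBS) closest. The means were 6.19 ± 0.18 in ETX and 6.54 ± 0.08 in PBS (SD, n = 3 each), a difference of -0.36 with an unadjusted interval of -0.58 to -0.13 (limma adjusted p = 0.0904). Groups without overlap were found for 2 of the 5 members, Mif and Cxcr4, and for 27.7% of all tested genes. Cxcr4 is expressed by endothelial cells and leukocytes. The mean of the 9 endothelial markers was 8.57 to 8.73 in ETX and 8.89 to 8.92 in PBS. All 9 lay below 0 in the difference, as did 7719 of all 14953 tested genes. Of the 9, 3 passed the test, against 2.43% of all tested genes called lower. How far endothelial cells enter the level of Cxcr4 was not tested.

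Cd44, the hyaluronan receptor that signals with CD74, read 5.84, 5.61 and 5.97 in ETX replicates 6, 7 and 10, against 6.07, 6.52 and 5.86 in PBS replicates 3, 9 and 12. PBS replicate 12 lay among the ETX hearts, and the highest value was that of PBS replicate 9, the heart richest in lung transcripts. The difference was -0.34 (unadjusted interval -0.72 to 0.04, limma adjusted p = 0.277). It shrank to -0.16 without PBS replicate 9, to -0.05 without PBS replicates 3 and 9 together, and to -0.02 with the lung-marker mean in the fit. Cd44 is carried by many cells, macrophages among them. The mean of 14 macrophage markers was 6.20 to 6.31 in ETX and 6.63 to 6.98 in PBS. All 14 lay below 0 and 5 passed the test, against 2.43% of all tested genes called lower. How far macrophages enter the level of Cd44 was not tested.

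Cxcr2, the neutrophil chemokine receptor, was dim in all hearts but one. Its log2 signal was 3.54, 2.81 and 3.91 in ETX replicates 6, 7 and 10, against 3.17, 5.73 and 2.9996 in PBS replicates 3, 9 and 12. The value of 5.73 stands alone, and the difference was -0.55 over all hearts but 0.34 without PBS replicate 9. The interval over all hearts was wide, -2.07 to 0.98 (limma adjusted p = 0.679), and no fold is given because the ETX mean lies under the level of 3.45. PBS replicate 9 also held the most neutrophil transcripts. The mean of 11 neutrophil markers was 5.51 in PBS replicate 9, 4.82 in PBS replicate 3 and 3.69 in PBS replicate 12, and 4.03 to 4.30 in the ETX hearts. The granule protein gene S100a8 read 6.29, 5.37 and 6.18 in ETX replicates 6, 7 and 10, against 7.26, 8.50 and 4.54 in PBS replicates 3, 9 and 12. Of the 11 markers 8 were highest in PBS replicate 9, while the myeloperoxidase gene Mpo was at 3.69 there and at 3.70 to 3.94 in ETX. All 9 tested neutrophil markers lay below 0 and 0 passed, also unadjusted, and their part in Cxcr2 was not tested.

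**Figure D2:**
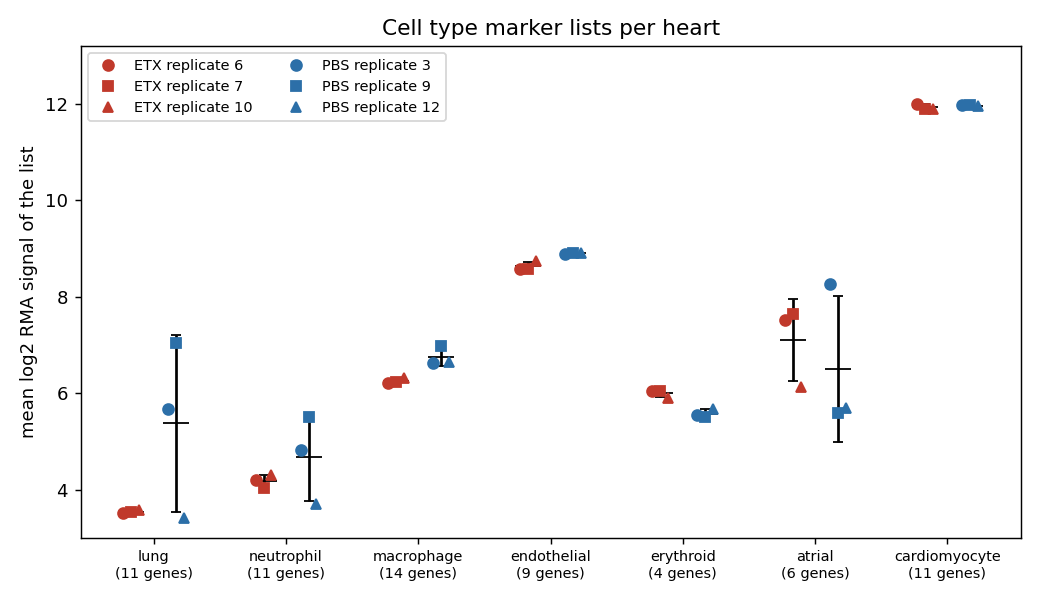
Mean log2 RMA signal (y axis) of cell type marker lists in each heart, with mean ± SD of 3 hearts per group. Lung and neutrophil lists are highest in PBS replicate 9, macrophage and endothelial lists are lower in all ETX hearts, and the erythroid list is higher in them.

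Of the 2 further receptors 1 fell, against 2.43% of all tested genes called lower. Cd74, the main MIF receptor and also the invariant chain of MHC class II, read 5.21, 5.09 and 5.50 in ETX replicates 6, 7 and 10, against 7.29, 8.27 and 7.11 in PBS replicates 3, 9 and 12. It fell by 2.29 on the log2 scale (limma adjusted p = 0.00857), opposite in direction to the difference of Mif. PBS replicate 9 was the highest, and the difference was -1.84 without PBS replicates 3 and 9. CD74 is carried by antigen-presenting cells, and the 14 macrophage markers, at 6.20 to 6.31 in ETX and 6.63 to 6.98 in PBS, were lower with it. Their part in the fall of Cd74 was not tested. Ackr3, the atypical receptor also known as CXCR7, was at 5.42 ± 0.15 in ETX and 5.76 ± 0.05 in PBS (SD, n = 3 each). Its groups did not overlap, as for 27.7% of all tested genes. Ackr3 did not pass (limma adjusted p = 0.0758), though it was called lower when only genes above the median level were tested.

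The pathway lists were drawn up from textbook knowledge, but with earlier results of these data known. They held 46 genes, of which 42 were measured and 37 tested. In them 0 rose and 3 fell over all genes tested, against background shares of 1.14% higher and 2.43% lower. Their median log2 difference was -0.10, against -0.01 over all tested genes. Under an unadjusted 0.05 lay 14 of the 37 (37.8%), against 21.9% of all tested genes. The 3 were Cd74, the phosphoinositide kinase subunit Pik3ca and the transcription factor Sp1. Of the intracellular partners of MIF, all 6 were tested and 0 passed, also unadjusted (median 0.02). Among them Cops5, a subunit of the COP9 signalosome that binds MIF, was at 7.86 ± 0.08 in ETX and 7.73 ± 0.05 in PBS (limma adjusted p = 0.331).

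Of the signalling and target genes 14 were tested, with 0 higher and 1 lower past the threshold (median -0.18). Pik3ca was at 8.25 ± 0.07 in ETX and 8.57 ± 0.05 in PBS and fell by 0.32 (limma adjusted p = 0.0472). It lost the call with each heart left out, with an adjusted p of 0.0796 to 0.143. The AMP-activated kinase subunits Prkaa1 and Prkaa2, through which MIF acts in the heart, differed by -0.23 and -0.18 without overlap. They did not pass (limma adjusted p = 0.213 and 0.175), and 27.7% of all tested genes had no overlap. Pik3cb, Pla2g4a and Nr3c1 of the same list were also lower without overlap, and Akt1 was higher without overlap (0.21). None of these passed. Dusp1, a phosphatase gene induced by glucocorticoids and restrained by MIF, read 9.86 in ETX replicate 7 but 10.72 in ETX replicate 10, inside the PBS range, and did not pass (-0.49, limma adjusted p = 0.23). Without ETX replicate 10 Dusp1 differed by -0.78 and passed (limma adjusted p = 0.0228). Apart from Pik3ca, the genes named from this list were singled out after their values were seen.

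Of the other ligands of these receptors 4 were tested and 0 passed, or 2 unadjusted, against 21.9% of all tested genes unadjusted (list median -0.01). Cxcl12, the chemokine ligand of CXCR4, was at 8.25 ± 0.11 in ETX and 8.10 ± 0.17 in PBS (limma adjusted p = 0.413). The largest difference among them, picked out after its value was seen, was that of Ppbp, a platelet chemokine that binds CXCR2. Ppbp read 9.11, 7.30 and 7.50 in ETX replicates 6, 7 and 10, against 5.67, 5.48 and 6.54 in PBS replicates 3, 9 and 12. It was higher in all ETX hearts, most in replicate 6, with a difference of 2.07 (limma adjusted p = 0.0542), and it was called higher with arrays centred on their median or with only genes above the median level. Cxcl1, another CXCR2 ligand and likewise picked out afterwards, lay the other way. It read 5.14, 5.10 and 5.07 in ETX replicates 6, 7 and 10, against 6.10, 6.27 and 5.04 in PBS replicates 3, 9 and 12 (-0.70, limma adjusted p = 0.192). The 2 high values are those of the hearts with lung transcripts. Without PBS replicate 12 the difference was -1.08 and passed (limma adjusted p = 0.00364), and without PBS replicates 3 and 9 it was 0.06. Of the 7 tested genes of hyaluronan turnover and CD44 binding 0 passed, or 1 unadjusted (median 0.11).

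Among the factors known to drive MIF transcription, 0 rose and 1 of 4 fell, against 2.43% lower over all tested genes. Under an unadjusted 0.05 lay 3 of the 4, against 21.9% of all tested genes. Sp1 read 6.87, 6.92 and 6.89 in ETX replicates 6, 7 and 10, against 7.31, 7.22 and 7.18 in PBS replicates 3, 9 and 12. It fell by 0.35 (limma adjusted p = 0.0348) and lost the call with each heart left out, with an adjusted p of 0.0636 to 0.113. Creb1, which binds the cAMP response element, was at 7.06 ± 0.21 in ETX and 7.42 ± 0.08 in PBS (-0.35, limma adjusted p = 0.115). Uhrf1, a chromatin factor of dividing cells, read 3.85, 4.31 and 4.42 in ETX replicates 6, 7 and 10, against 3.86, 3.73 and 3.77 in PBS replicates 3, 9 and 12. ETX replicate 6 lay in the PBS range, and the difference of 0.41 (limma adjusted p = 0.14) became 0.58 and passed without it (0.0356). Creb1 and Uhrf1 were named after their values were seen. Hif1a, the oxygen-regulated subunit of the hypoxia-inducible factor, was at 8.56 ± 0.12 in ETX and 8.51 ± 0.06 in PBS (limma adjusted p = 0.759), a transcript level that says little of a factor controlled through its protein.

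**Figure D3:**
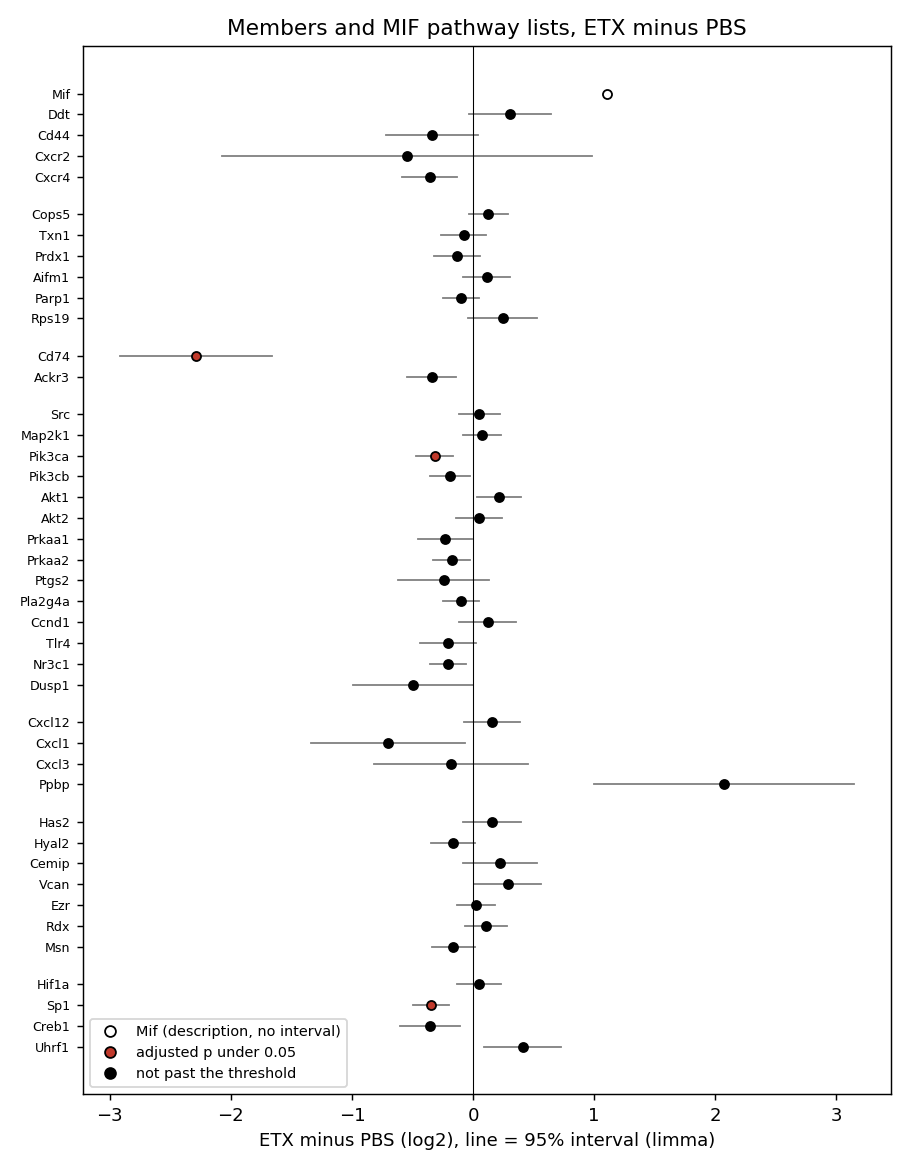
Log2 difference, ETX minus PBS (x axis), of the 5 genes and the tested genes of the pathway lists (y axis, gaps between lists), with unadjusted 95% limma intervals except for Mif. Cd74, Pik3ca and Sp1, in red, passed an adjusted p of 0.05, all lower in ETX.

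No neighbour of Mif on the chromosome passed the test. Of the 5 measured genes on each side of it, 8 were tested and 0 passed. Unadjusted 2 passed (Gstt2 and Gstt3), against 21.9% of all tested genes. The 8 neighbours had log2 differences of -0.26 to 0.30 and limma adjusted p of 0.173 to 0.738. On 1 side these were Ddt and the glutathione transferases Gstt3 (-0.17), Gstt1 (-0.23) and Gstt2 (-0.26), with Gstt4 too dim to test. On the other they were Derl3 (-0.19), the chromatin remodelling subunit Smarcb1 (-0.08), the metalloproteinase Mmp11 (-0.06) and the mitochondrial protein gene Chchd10 (0.15), with Gm867 too dim to test. Gstt2 was at 4.63 ± 0.12 in ETX and 4.89 ± 0.15 in PBS, without overlap between the groups. Gstt3, at 4.91 ± 0.09 in ETX and 5.09 ± 0.08 in PBS, did not overlap either. Groups without overlap were found for 27.7% of all tested genes.

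**Figure D4:**
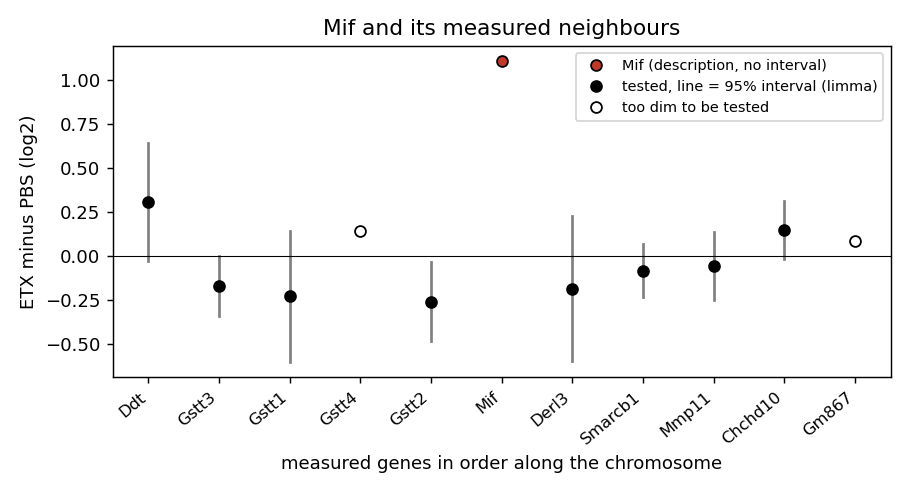
Log2 difference, ETX minus PBS (y axis), of Mif and the 5 measured genes on each side of it, in chromosomal order (x axis), with unadjusted 95% limma intervals for tested genes other than Mif. The tested neighbours lie between -0.26 and 0.30, and Mif at 1.11.

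The genes closest to Mif in profile were found by the root mean square distance between log2 values centred on each gene's mean over the 6 hearts. The 5 nearest were Tmem267 (distance 0.14), Clca3a1 (0.17), Dio2, the deiodinase that activates thyroid hormone (0.18), Tpm2, a tropomyosin (0.18), and the ceramidase Acer2 (0.21). Tmem267 read 6.54, 6.58 and 6.84 in ETX replicates 6, 7 and 10, against 5.97, 5.67 and 5.67 in PBS replicates 3, 9 and 12. Being chosen for likeness to Mif over these hearts, they separate the groups by choice and are given with no test.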

How the data were processed

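The deposited values are log2 signals that the authors made with Affymetrix Expression Console and RMA, per the submitters' processing notes, which give no version. RMA corrects background, equalises the arrays' distributions and summarises probes, and it compresses differences of dim transcripts. Array medians lay between 4.43 and 4.51. Platform annotation named 1 gene for 21789 of 35556 transcript clusters, several for 1621 and none for 12146; gene identifiers of 19856 of 19938 genes were found in RefSeq's table. Genes with a mean under the lower quartile (3.45) did not enter the tests, leaving 14953.

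The ETX hearts were set against the PBS hearts by limma 3.58.1 in R 4.3.3, a two-sided moderated test (functions lmFit, eBayes), adjusted by Benjamini-Hochberg over all genes tested, with a threshold of 0.05. The functions were tested on simulated data. Figures used matplotlib 3.10.9.

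Members and lists were chosen with earlier results of these data known. Named are the 5 members, list genes past the threshold, Cd74, Ackr3, Cxcl12, Cops5, Hif1a, the neighbours of Mif and the 5 nearest profiles; others are marked in the text, and marker genes are quoted beside results. The alternatives were filters, eBayes options, normalizations, the mean of clusters, each heart left out, and fits without the PBS hearts with lung transcripts or with lung or atrial scores.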

Additional observations from a re-analysis of the deposited data

How the results depend on the processing

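Over 15 alternatives Ddt (0.16 to 0.59), Cd44 (-0.49 to -0.02) and Cxcr4 (-0.44 to -0.26) kept their direction and passed in none; the smallest limma adjusted p of Cxcr4 was 0.053, with a trended and robust eBayes. Cxcr2 could be tested in 12 of them, since it fell under the filter in the others, and turned to 0.72 when the score of lung markers was a covariate. The difference of Mif, whose direction is fixed by its choice, was 1.00 to 1.24 with 1 heart left out and 1.32 without PBS hearts 3 and 9. The count of 533 genes past the threshold was 909 with the filter at the median, 957 with a trended and robust eBayes, 90 to 243 with 1 heart left out, 19 without PBS hearts 3 and 9, 80 with the lung score and 141 with the atrial score. With arrays centred on their median 125 genes were higher and 459 lower, and after a further quantile normalization 223 and 312, against 170 and 363 as deposited. The count of 3 pathway genes (Cd74, Pik3ca and Sp1) was 5 with the filter at the median, where Ackr3 (lower) and Ppbp (higher) were added, 4 with centred arrays, where Ppbp was added, 1 after a further quantile normalization, 1 to 2 with 1 heart left out, and 1 without PBS hearts 3 and 9, with the lung score or with the atrial score. Fewer hearts, and fewer genes under the stricter filter, are part of these settings by construction; other causes were not tested. The single gene left was Cd74, and the second gene without 1 heart was Uhrf1 (higher), Dusp1 or Cxcl1. Cd74 passed in each of the 15. No paired analysis was possible because the groups share no replicate numbers. Without detection calls, values near the low end, Cxcr2 above all, give no reliable fold.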
